A study of Homo sapiens with 2 samples.

Results

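Transcripts of the NRF2 antioxidant response were compared between 2 stable derivatives of SW480, an established human colorectal adenocarcinoma line. One array carried target from SW480 cells with the TFAP2E coding sequence in the mammalian expression plasmid pTarget, and the other from SW480 cells with the empty vector. TFAP2E encodes AP-2 epsilon, a DNA-binding transcription factor of the AP-2 family. Both derivatives had been kept under Geneticin for weeks and were grown from picked single clones tested for TFAP2E, per the labels' protocols. The labels do not say how many clones an array holds, and a picked clone can differ from another in ways unrelated to the plasmid. With 1 array per group no difference has a replicate, a test or an error, and clone, array and TFAP2E cannot be told apart.

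The genes described are NRF2 itself, its sensor, and enzymes of glutathione, thioredoxin, NADPH, haem and detoxification metabolism, chosen by name from a list of 34 symbols. Of these, 33 were matched by symbol to 35 probe sets of the 33297 on the array, which stood for 18417 named genes. FTH1, the ferritin heavy chain, was not analysed here. A gene counted as dim when neither of its 2 values reached 5.55, the median of all probe sets, which is not a detection limit. Of the 33 genes 29 passed this filter and 4 were dim. The 29 stand among 11548 genes that passed, and 28 of them reached 5.55 on both arrays. AKR1C1 passed on the empty vector array only.

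NRF2, encoded by NFE2L2, is a transcription factor that binds antioxidant response elements together with small MAF proteins. In unstressed cells KEAP1 holds it and hands it to a CUL3 ubiquitin ligase for degradation. Oxidants and electrophiles modify KEAP1, and NRF2 then accumulates and raises the enzymes that make glutathione, reduce thioredoxin, supply NADPH and conjugate or reduce toxic compounds. Because the switch acts on the protein, the NFE2L2 transcript is not a direct readout of NRF2 activity. In colorectal cancer these enzymes are studied for their part in drug detoxification.

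The series as a whole gives the frame for what follows. Values are log2 RMA values, and each difference is TFAP2E minus empty vector. The 11548 differences had a median of 0.04 and an SD of 0.22, with the central 95% between -0.37 and 0.47. The TFAP2E probe set read 6.81 against 6.77 and thus does not show the introduced sequence. The labels therefore could not be checked with it, since the sources used here do not say which part of the transcript it covers. Of 11 colorectal epithelium markers 8 passed the filter, among them EPCAM at 11.1 and 11.2, while KRT20, GPA33 and CDH17 were dim. CDH1 (E-cadherin) read 6.38 against 7.08 with the empty vector, a difference of -0.71, and VIL1 (villin) 6.22 against 4.94, a difference of 1.28, with a dim value on the empty vector array. The part of such differences in the results below was not tested. All 4 endothelial markers were dim, as were 4 of 6 leukocyte markers found, with PTPRC at 2.74 on both arrays, and 4 of 6 fibroblast markers. Of the leukocyte markers that passed, CD68, a lysosomal protein, differed by 0.57 and CD14 by -0.19, and their part in the results was not tested.

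The antioxidant response element is the feature that classes most of these genes together, so the promoters were searched for its core, TGACNNNGC, and for the AP-2 site GCCNNNGGC, on both strands. The promoters are RefSeq windows of build GRCh38.p14 that run from 250 bases before a transcript start to 50 after it, and 27 of the 34 symbols had at least 1 window. The element core occurred in 12 of their 38 windows (31.6%), against 13.35% of all 35116 windows of the same length. AP-2 matches were in 12 of the 38 (31.6%), against 23.2% of all windows. A letter match is a description and does not show that a factor binds there.

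The 2 promoters below are shown because they belong to textbook NRF2 targets with matches upstream of the start and with different array values, GSTP1 at a difference of 0.46 and GCLM at 0.09. Both are the 250 bases before the start, 5′ to 3′ on the gene's strand. Capitals mark matches to the element core and to the AP-2 site. In GSTP1 the only capitals are the element core. In GCLM the first run of capitals is a pair of overlapping AP-2 matches, and the second is the element core read on the opposite strand. The windows lie at chr11:67583562-67583811 on the plus strand and chr1:93909431-93909680 on the minus strand.
GSTP1: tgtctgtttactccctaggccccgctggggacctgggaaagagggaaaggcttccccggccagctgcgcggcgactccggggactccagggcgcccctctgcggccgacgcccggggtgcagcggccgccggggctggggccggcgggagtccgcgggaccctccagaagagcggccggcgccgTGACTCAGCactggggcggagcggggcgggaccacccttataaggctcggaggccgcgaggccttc
GCLM: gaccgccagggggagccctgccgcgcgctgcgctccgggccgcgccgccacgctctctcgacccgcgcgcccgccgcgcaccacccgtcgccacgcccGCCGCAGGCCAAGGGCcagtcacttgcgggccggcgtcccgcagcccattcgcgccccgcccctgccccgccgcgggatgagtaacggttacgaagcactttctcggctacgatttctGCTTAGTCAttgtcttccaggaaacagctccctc

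Shorter windows of 29 bases show an element core, in capitals, of 7 other members, so that the letters can be compared. They lie upstream of a start at chr12:104215670-104215698 (TXNRD1, plus strand), chr2:208255196-208255224 (IDH1, minus), chr21:36069855-36069883 (CBR1, plus), chr6:83431170-83431198 (ME1, minus), chr1:10398853-10398881 (PGD, plus), chr19:10502784-10502812 (KEAP1, minus) and chr14:64942849-64942877 (GPX2, minus). In CBR1, PGD, KEAP1 and GPX2 the core shown is on the opposite strand, so that its letters appear in reverse complement. Further matches in KEAP1, TXNRD1 and ME1, and those in EPHX1 and MGST1, are not printed.
TXNRD1: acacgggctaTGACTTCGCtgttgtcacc
IDH1: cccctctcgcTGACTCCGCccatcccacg
CBR1: tgcgggttctGCAAAGTCAggctagctgg
ME1: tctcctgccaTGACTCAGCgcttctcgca
PGD: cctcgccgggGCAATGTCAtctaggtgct
KEAP1: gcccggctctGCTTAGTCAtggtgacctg
GPX2: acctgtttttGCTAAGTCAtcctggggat

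A match in these windows did not go with one direction on the arrays. GSTP1 and ME1 carry the same 9 letters, TGACTCAGC, and differed by 0.46 and -0.06. KEAP1 and GCLM both carry GCTTAGTCA and differed by -0.19 and 0.09. Among the members that passed the filter and had a promoter window, the 9 with an element core had a median difference of 0.09, with 6 above 0, and the 14 without had 0.11, with 13 above 0. GCLC and SRXN1, which lay among the 5 highest members, and NQO1 had no match in these windows. Sequence farther from the start was not searched, so a gene without a match here may carry an element elsewhere. The comparison of genes with and without a match covers these windows only. Over all genes that passed and had a window, the median was 0.05 both for the 1820 with a core and for the 7463 without. For AP-2 matches the members' medians were 0.09 with (11 genes) and 0.19 without (12 genes), and those of all genes 0.04 with and 0.05 without.

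No member differed by 1.5-fold between the arrays. The count was 0 of 29 higher and 0 of 29 lower, against 0.892% and 0.606% of all 11548 genes, a share close to that background. Most members were nonetheless slightly higher on the TFAP2E-labelled array. Of the 29, 25 lay above 0 and 4 below, against 59.2% and 39.5% of all genes, and their median of 0.11 compares with 0.04. With the filter at the upper quartile, 20 of 23 members lay above 0, against 63.2% of 5716 genes. The medians were then 0.13 and 0.06. The members were chosen with earlier results of these data known, so this contrast is a description only. Over all 33 genes found, 25 were above 0, 7 below and 1 at 0, with a median of 0.09.

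The share above 0 depends on how the arrays are scaled. When the arrays were quantile normalized again, or when the loess trend of the difference on the mean level was removed, 20 of 29 members lay above 0, where 54.1% and 52.1% of all genes did. The 5 that turned negative under each of these scalings were GPX1, TXN, PRDX1, PRDX6 and OSGIN1. Relative to the median of all genes, 19 of the 29 were higher as deposited and under each of the 3 scalings tried. Centring each array on its median shifts all genes alike, and no recomputed member difference moved by more than 0.06. The count of 19 thus had little room to change. Rescaling reuses the same arrays, so a count or sign kept under it cannot show a direction between the groups. At 1.2-fold, a looser rule chosen after the values were seen, 7 members were higher (24.1% of 29, against 12.8% of all genes) and 1 was lower (of 29, against 6.05%). The 7 were GCLC, GSTP1, BLVRB, TXNRD1, SRXN1, IDH1 and CBR3, and the lower one was AKR1C1.

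**Figure D1:**
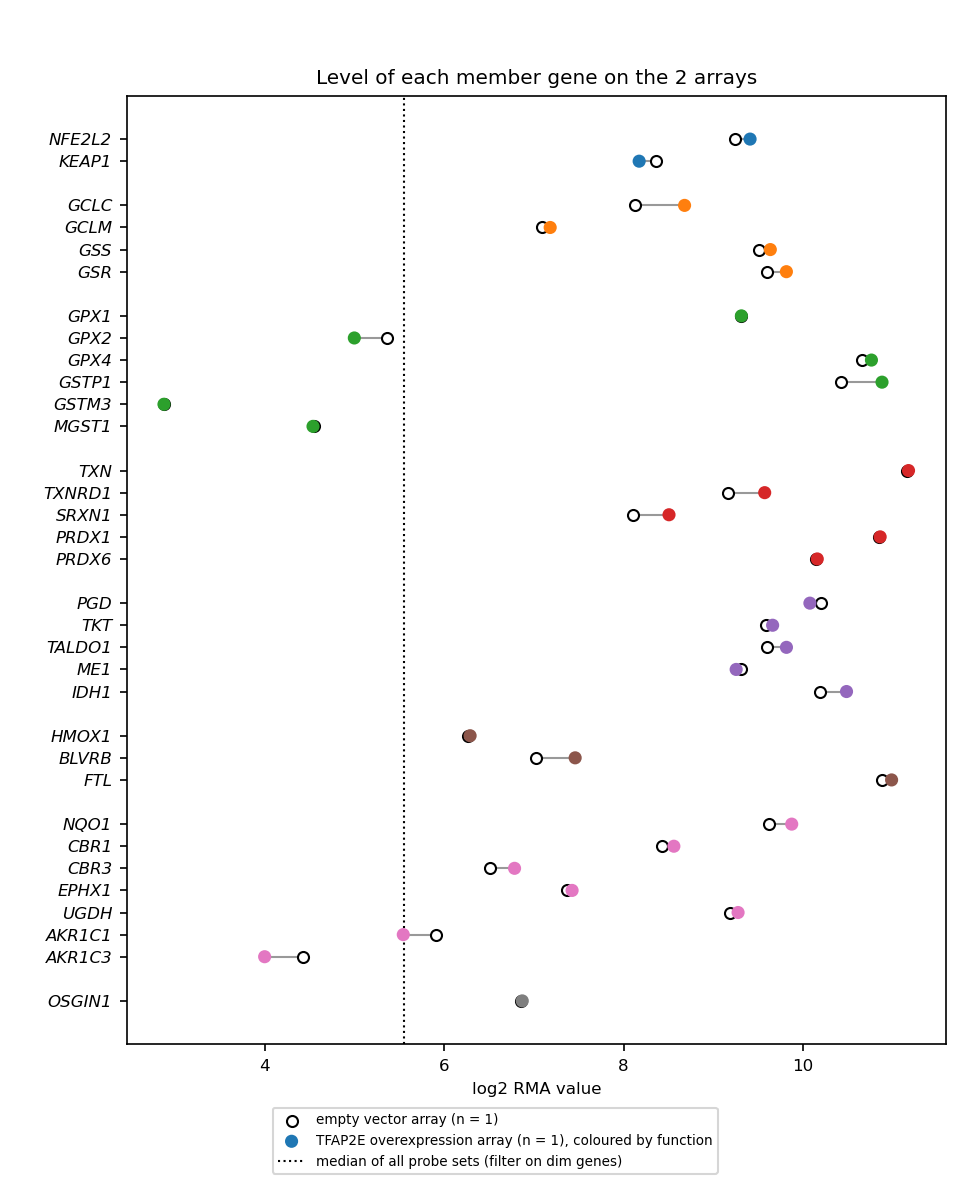
Log2 RMA value (horizontal axis) of the 33 member genes on the empty vector array (open circles) and the TFAP2E overexpression array (filled circles, coloured by functional group), 1 array each. The dotted line is the median of all probe sets at 5.55, and levels of different genes are not comparable because their probes differ. The longest lines to the right belong to GCLC, GSTP1 and BLVRB, those to the left to AKR1C3, GPX2 and AKR1C1.

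The transcripts of NRF2 and its sensor differed in opposite directions, both by little. NFE2L2 read 9.41 with TFAP2E and 9.24 with the empty vector, a difference of 0.17. Values below are given in this order. KEAP1, the adaptor that marks NRF2 for degradation, read 8.17 against 8.36, a difference of -0.19. NFE2L2 lay at percentile 75.2 and KEAP1 at percentile 11.3 of the 11548 differences, both inside the range of 95% of genes. Both kept their sign under the 3 scalings, but these moved no member by more than 0.06 and so could not have changed it.

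Glutathione synthesis held the member with the highest difference. GCLC, the catalytic subunit of glutamate-cysteine ligase, which sets the rate of glutathione synthesis, read 8.68 against 8.12. This is a difference of 0.55, or 1.47-fold, just under the 1.5-fold rule. It lay at percentile 98.8 of all genes and at 99.2 among the 500 genes nearest to it in mean level, and was the only one of the 29 members that passed the filter to lie outside the range that held 95% of genes. Its partner, the modifier subunit GCLM, read 7.18 against 7.09 and differed by 0.09. The subunits of this enzyme thus lay at different places in the distribution, GCLM at percentile 60.3. GSS, glutathione synthetase, which adds glycine in the second step, read 9.63 against 9.51. GSR, the reductase that returns oxidised glutathione to its reduced form with NADPH, read 9.81 against 9.60. All 4 genes of this group were higher, by a median of 0.17.

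Among the enzymes that use glutathione, only 3 of 6 passed the filter. GSTP1, the pi-class transferase that conjugates glutathione to electrophiles and is abundant in many tumours, read 10.9 against 10.4, a difference of 0.46 or 1.38-fold. It lay at percentile 97.4 of all genes, and at 99.2 among the 500 nearest in level, where 95% of differences lay between -0.33 and 0.37. GPX4, which reduces lipid peroxides in membranes, read 10.8 against 10.7 and differed by 0.11. GPX1, the cytosolic glutathione peroxidase, had 2 probe sets, which differed by 0.01 and -0.05, one on each side of 0.

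The other 3 were dim on both arrays. GPX2, the gastrointestinal glutathione peroxidase, read 5.0 against 5.37, a difference of -0.37. MGST1, a microsomal transferase, differed by -0.01, at 4.54 against 4.55. GSTM3, a mu-class transferase, read 2.88 on both arrays, to the last deposited digit. Such identical pairs made up 4.14% of all probe sets (1379), and GSTM3 is 1 of many.

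Of the thioredoxin and peroxiredoxin genes, TXNRD1 and SRXN1 lay high, and TXN, PRDX1 and PRDX6 lay near the centre of the distribution. TXNRD1, the cytosolic selenoprotein that reduces thioredoxin with NADPH, read 9.57 against 9.17, a difference of 0.41 or 1.32-fold. SRXN1, sulfiredoxin, which repairs over-oxidised peroxiredoxins, read 8.51 against 8.11, a difference of 0.40 or 1.32-fold. They lay at percentiles 96.0 and 95.8 of all genes. TXN, thioredoxin itself, and the peroxide-reducing enzymes PRDX1 and PRDX6 each differed by 0.02. TXN read 11.2 on both arrays, PRDX1 10.9 against 10.8 and PRDX6 10.2 against 10.1. These 3 lay below the median of all genes and changed sign under 2 of the 3 scalings, so their sign depends on the scaling. A sign kept under these scalings does not give the other genes a direction either.

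**Figure D2:**
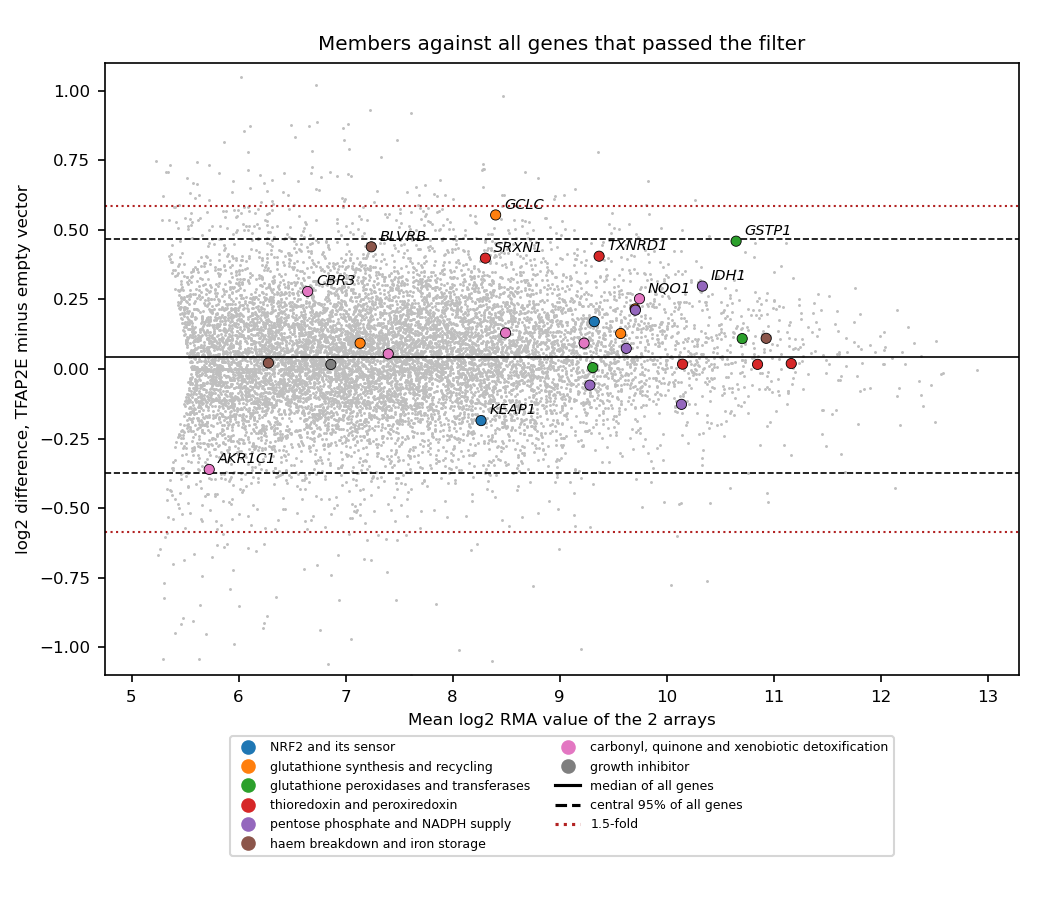
Log2 difference, TFAP2E minus empty vector (vertical axis), against the mean log2 RMA value of the 2 arrays (horizontal axis) for all 11548 genes that passed the filter (grey) and the 29 members among them (coloured by function), with 14 genes beyond the plotted range of 1.1. GCLC lies above the dashed lines that enclose 95% of all genes, GSTP1 just under the upper one, and no member crosses the dotted 1.5-fold lines.

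The NADPH-supplying enzymes were split. The oxidative pentose phosphate pathway makes NADPH, and its non-oxidative arm rearranges the sugar phosphates. PGD, 6-phosphogluconate dehydrogenase of the oxidative arm, read 10.1 against 10.2 and differed by -0.13, at percentile 17.6 of all genes. In the non-oxidative arm, TALDO1, transaldolase, read 9.81 against 9.60, a difference of 0.21, and TKT, transketolase, read 9.66 against 9.59, a difference of 0.07. ME1, the cytosolic malic enzyme, read 9.25 against 9.31 and differed by -0.06. IDH1, the cytosolic isocitrate dehydrogenase, read 10.5 against 10.2, a difference of 0.30, the highest of these 5. PGD and ME1 were lower and the other 3 higher under each scaling tried. The scalings moved no member by more than 0.06, so these signs had little room to change.

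The genes of haem breakdown and iron storage lay at different places in the distribution. HMOX1, haem oxygenase 1, which opens the haem ring and is among the most inducible NRF2 targets, read 6.29 against 6.27 and differed by 0.02. BLVRB, a reductase of biliverdin and flavins, read 7.46 against 7.02, a difference of 0.44 or 1.36-fold, at percentile 96.95. FTL, the ferritin light chain, read 10.98 against 10.87 and differed by 0.11. BLVRB was thus near the upper edge of the distribution and HMOX1 near its middle, at percentile 44.9.

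Of the 7 detoxification genes, 5 were higher and the 2 aldo-keto reductases lower. NQO1, the quinone reductase most often used as an NRF2 readout, read 9.87 against 9.62, a difference of 0.25, at percentile 86.1. The carbonyl reductases CBR1 and CBR3, neighbours on chromosome 21, differed by 0.13 (8.56 against 8.43) and 0.28 (6.78 against 6.51). EPHX1, microsomal epoxide hydrolase, differed by 0.05 (7.43 against 7.37). UGDH, which makes the UDP-glucuronic acid used in glucuronidation, differed by 0.09 (9.27 against 9.18). OSGIN1, a growth inhibitor induced by oxidative stress, differed by 0.02 (6.87 against 6.85).

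AKR1C1 and AKR1C3 reduce steroids and carbonyls and belong to a cluster of closely related genes on chromosome 10, so that their probes may share signal. AKR1C1 read 5.55 against 5.91, a difference of -0.36 or 1.28-fold lower, at percentile 2.81 of all genes. Among the 500 genes nearest to it in mean level it lay less far out, at percentile 4.8. The TFAP2E value of 5.545 was just under the filter value of 5.549, so AKR1C1 passed on the empty vector array only. Its second probe set was dim and differed by -0.32 (4.49 against 4.81). AKR1C3 was dim on both arrays, at 4.0 against 4.43, a difference of -0.42. AKR1C2, a relative outside the list that was picked after its value was seen, was dim as well and differed by -0.52 (4.87 against 5.39), and the dim AKR1C4 differed by 0.32 (2.98 against 2.66). AKR1C1, AKR1C2 and AKR1C3 thus read lower on the TFAP2E-labelled array, and AKR1C4 higher.

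The genes beside the members on their chromosomes were summarised as well. Around each member that passed, the median difference of 20 neighbouring genes, 10 on each side, lay between -0.05 and 0.14. For the 5 highest members it was 0.09 around GCLC, 0.02 around GSTP1, 0.01 around BLVRB, 0.05 around TXNRD1 and 0.11 around SRXN1. A median of 20 genes varies less than a single gene, so these values are not compared with the members' own. What part neighbouring genes have in the members' values was not tested.

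Other genes of the same pathways were summarised from a list of 100 chosen by function, of which 88 were matched and 73 passed the filter. TXNIP, which binds and inhibits thioredoxin, was the only one of the 73 past 1.5-fold higher, and none was lower, against 0.892% and 0.606% of all genes. It read 8.80 against 8.17, a difference of 0.63. The count past 1.5-fold was 2 with each array centred on its median, where SLC7A11 joined, and 0 after quantile normalization or removal of the loess trend. Around TXNIP the neighbours' median was 0.18. The median of the 73 was 0.07, and 44 were above 0 and 28 below (60.3% above 0, near the 59.2% of all genes). The second highest was SLC7A11, the cystine carrier that feeds glutathione synthesis, at 8.13 against 7.57, a difference of 0.56. Its partner in the carrier, SLC3A2, picked after its value was seen, differed by -0.10 (10.3 against 10.4). Next was GSTM4, a mu-class transferase in a cluster of close copies, at 0.52 (7.32 against 6.80), with a neighbours' median of 0.20. The lowest were ALDH3A1, an aldehyde dehydrogenase, at -0.40 (6.41 against 6.81), the carboxylesterase CES1 at -0.38 (6.20 against 6.58) and SESN1, a sestrin, at -0.37 (5.70 against 6.07).

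**Figure D3:**
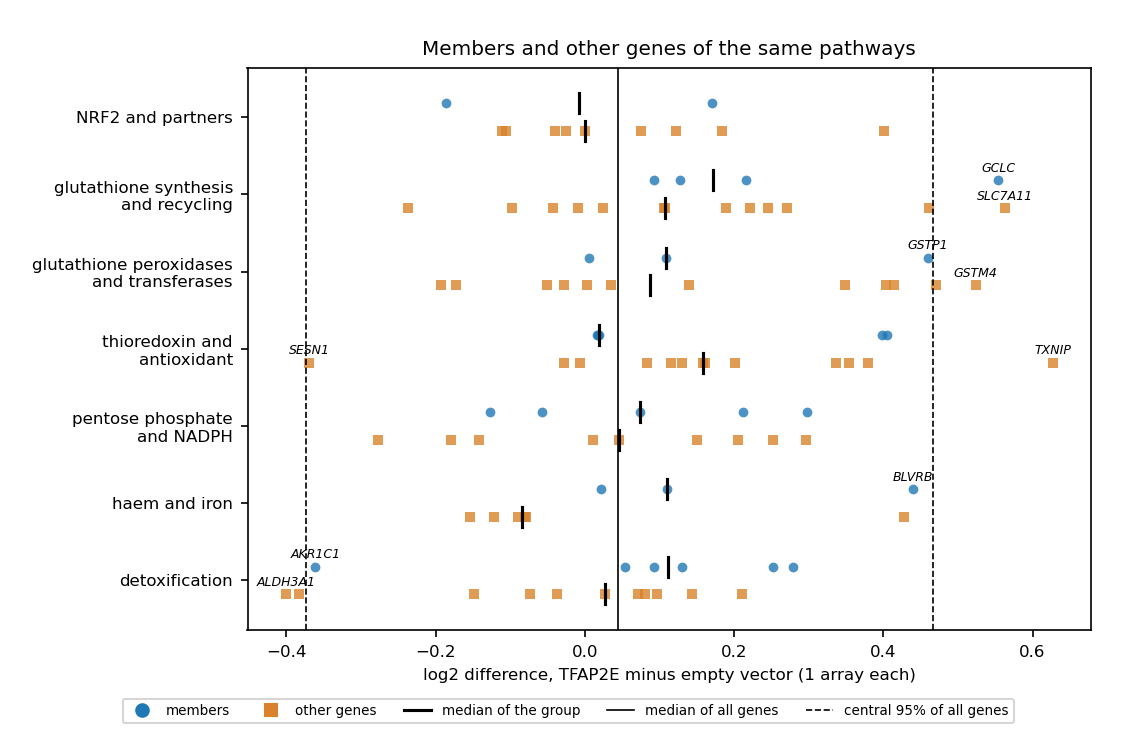
Log2 difference, TFAP2E minus empty vector (horizontal axis, 1 array each), of members (circles) and other genes of the same pathways (squares) that passed the filter, by function. Short bars are group medians, the thin line is the median of all genes at 0.04 and dashed lines enclose 95% of all genes. GCLC, SLC7A11, GSTM4, TXNIP and, at 0.47, GSTM1 lie beyond the upper dashed line. GSTM1 passed the filter on the TFAP2E array only (5.80 against 5.33). Among the 500 genes nearest to GSTM1 in level, the central 95% reached 0.53, so it lay inside that range. ALDH3A1 at -0.40 and CES1 at -0.38 lie beyond the lower one.

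By function, the other genes of glutathione and thioredoxin metabolism lay higher than those of haem and iron. The 13 other genes of glutathione synthesis, breakdown and cystine supply had a median of 0.11, with 9 above 0. The 12 other peroxidases and transferases had a median of 0.09, with 8 above 0. The 13 other thioredoxin, peroxiredoxin and antioxidant genes had a median of 0.16, with 10 above 0. The 9 other pentose phosphate and NADPH genes had a median of 0.05, with 6 above 0, and the 11 other detoxification genes and efflux pumps had 0.03, with 6 above 0. Of 6 other haem and iron genes only BLVRA, the other biliverdin reductase, was above 0, at 0.43 (9.05 against 8.62), where the neighbours' median was 0.26 on chromosome 7. The 9 partners and competitors of NRF2 had a median of 0, with 4 above and 4 below it. These groups were compared by medians alone, and their differences were not tested.

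**Figure D4:**
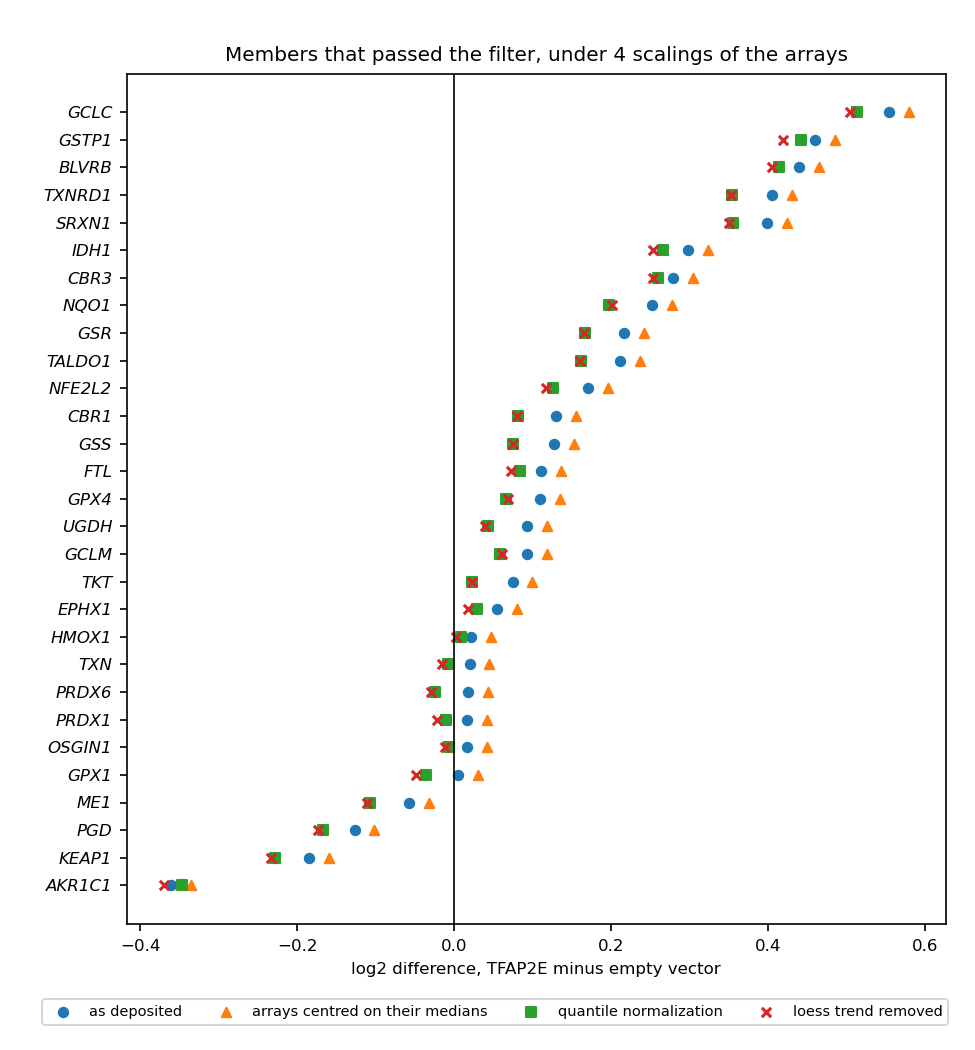
Log2 difference, TFAP2E minus empty vector (horizontal axis), of the 29 members that passed the filter, as deposited and under 3 other scalings of the arrays. GCLC, GSTP1, BLVRB, TXNRD1 and SRXN1 stay highest and AKR1C1 lowest under each, while GPX1, TXN, PRDX1, PRDX6 and OSGIN1 lie on both sides of 0.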

How the data were processed

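The deposited table holds 1 log2 value per probe set and array, and the authors used RMA for it, as the submitters' processing notes state. It corrects background, quantile-normalizes the arrays and summarises probes on the log2 scale, so that a change common to all transcripts would not show. The RMA version and genome build were not given in the sources used here. Names came from the platform annotation (19460 with 1 symbol, 1754 with several, 12083 with none), and symbols were updated through RefSeq (GRCh38.p14), where 19429 were found. A gene with several probe sets was represented by the one with the highest mean. No scaling was added. A difference of 1.5-fold was the fixed rule of size, and no test is possible with 1 array per group. The number of arrays limits the precision.

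Percentiles place a difference among all genes that passed, or among the 500 nearest in mean level. Neighbours were ordered by the RefSeq table. All members were described. Of the other pathway genes the 3 highest, the 3 lowest, those past 1.5-fold and SLC7A11 were to be named, and AKR1C2, AKR1C4, BLVRA, GSTM1, SLC3A2 and SLC40A1 were added after their values were seen. The members and lists were chosen with earlier results of these data known. Functions were tested on simulated data. Analyses used Python 3.11.15, pandas 2.3.3 and statsmodels 0.14.6 (lowess, fraction 0.3).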

Additional observations from a re-analysis of the deposited data

How the results depend on the processing

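The counts of members past 1.5-fold, 0 higher and 0 lower, were also 0 under the 3 other scalings, with no filter on dim genes, with a filter at the upper quartile, with probe sets averaged per gene and at 2-fold. At 1.2-fold, chosen after the data were seen, they were 7 higher and 1 lower, and those of the 73 other pathway genes were 15 and 4. Over all genes the shares at this cut were 12.8% higher and 6.05% lower. The counts lower, 1 of 29 members and 4 of 73 other pathway genes, are small and lay near that background. None of these counts was tested. Of the other pathway genes 1 was higher at 1.5-fold, and this became 2 with centring, 0 with quantile normalization, 0 without the loess trend and 0 at 2-fold. None was lower, except 1 with no filter, the dim iron exporter SLC40A1. The members' median of 0.11 ranged from 0.07 to 0.13, and that of all genes, 0.04, from 0.01 to 0.07. All 132 recomputed member differences moved by at most 0.06. Leaving out an array is not possible with 1 per group. No paired analysis was possible because neither group holds more than 1 array.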
